A study of Mus musculus with 8 samples.

Results

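The lysyl oxidase family was examined in RNA-seq counts from 4 mouse mammary tumour cell lines. Its 5 members, *Lox*, *Loxl1*, *Loxl2*, *Loxl3* and *Loxl4*, were taken as the rows whose Entrez gene identifiers carry these symbols in the RefSeq gene table. All 5 were found among the 27179 genes of the count matrix. The lines were 4T1.2, 4T1, 66cl4 (written 66c14 in the sample labels) and 67NR, which are related BALB/c mammary tumour lines kept in culture, and the labels name no treatment and no engineered allele. Each line was sequenced as 2 biological replicates, giving 8 libraries made from total RNA with the TruSeq RNA v2 kit. The study set 4T1 and 4T1.2 against 66cl4 and 67NR, which it describes as less metastatic. Each group is a single cell line grown without host tissue. The tests below therefore measure the spread between cultures of a line and not between tumours.

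Lysyl oxidases are secreted, copper-dependent amine oxidases. They oxidise lysine side chains of collagens and elastin to aldehydes, which then condense into the covalent cross-links that stiffen the extracellular matrix. *Lox* and *Loxl1* encode enzymes with a propeptide that is removed by proteinases of the BMP1 group, whereas *Loxl2*, *Loxl3* and *Loxl4* encode enzymes with scavenger receptor cysteine-rich domains before the same catalytic domain. In breast tumours the family is best known for collagen cross-linking in the tumour stroma and in future metastatic sites.

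The genes lie on different chromosomes of the mouse genome build GRCm38 and all are protein-coding. *Loxl1* (Entrez gene 16949) spans chromosome 9, 58287723 to 58313212. *Loxl2* (94352) spans chromosome 14, 69608692 to 69695834, *Loxl3* (16950) spans chromosome 6, 83034205 to 83052566, and *Loxl4* (67573) spans chromosome 19, 42592279 to 42612806.

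Since the family shares a catalytic domain, the likeness of its messages bears on whether short reads can be assigned to the right member. The coding sequences of the GENCODE M21 transcripts were compared in windows of 75 bases. The closest window of *Lox* and *Loxl1* differed at 4 bases, that of *Loxl2* and *Loxl4* at 9, and those of *Loxl3* with *Loxl2* and with *Loxl4* at 12 each. The remaining 6 pairs differed at 16 to 21 bases. No stretch of 75 bases was shared between any pair of members. Shown are the closest windows of *Loxl2* with *Loxl4* and with *Loxl3*, in exons 10 and 11 of *Loxl2*, with the intron between them removed. The window with *Loxl4* covers the histidine-rich copper-binding stretch of the catalytic domain. The window with *Loxl3* covers only the end of that stretch and the bases after it. The window of *Loxl3* and *Loxl4*, which also differed at 12 bases, is not shown. Capitals mark the bases that differ within a pair, and the coordinates are those of the first and last base in GRCm38.
*Loxl2*, chr14:69682315-69689078, plus strand: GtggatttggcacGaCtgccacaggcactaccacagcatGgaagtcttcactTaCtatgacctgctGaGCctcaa
*Loxl4*, chr19:42598766-42599900, minus strand: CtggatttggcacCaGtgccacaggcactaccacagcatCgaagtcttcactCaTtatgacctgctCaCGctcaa
*Loxl2*, chr14:69682338-69689101, plus strand: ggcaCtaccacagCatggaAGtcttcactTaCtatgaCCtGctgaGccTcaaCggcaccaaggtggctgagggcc
*Loxl3*, chr6:83050017-83050189, plus strand: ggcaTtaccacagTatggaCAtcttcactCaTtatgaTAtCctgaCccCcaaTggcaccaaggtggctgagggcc
Over the whole coding sequences, the longest run of identical bases was 23 for *Loxl2* and *Loxl4* and 26 for *Loxl2* and *Loxl3*. The window length is the read length that the methods give for the endothelial libraries, to which they liken the sequencing of the tumour lines.

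Reads counted on genes totalled between 37159840 and 66269681 per library. Levels are given as counts scaled to library size (CPM, with TMM factors), as mean ± SD with n = 2 libraries for each line. Levels of different genes are compared only as CPM per kilobase (RPKM), with the gene lengths in the deposited files. Differences between lines come from edgeR's quasi-likelihood test on all 8 libraries together, with Benjamini-Hochberg adjustment over the 13913 genes tested and a threshold of 0.05. Within each line the replicates differed beyond sampling noise. Bounds and intervals built from counts cover counting error only.

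**Figure D1:**
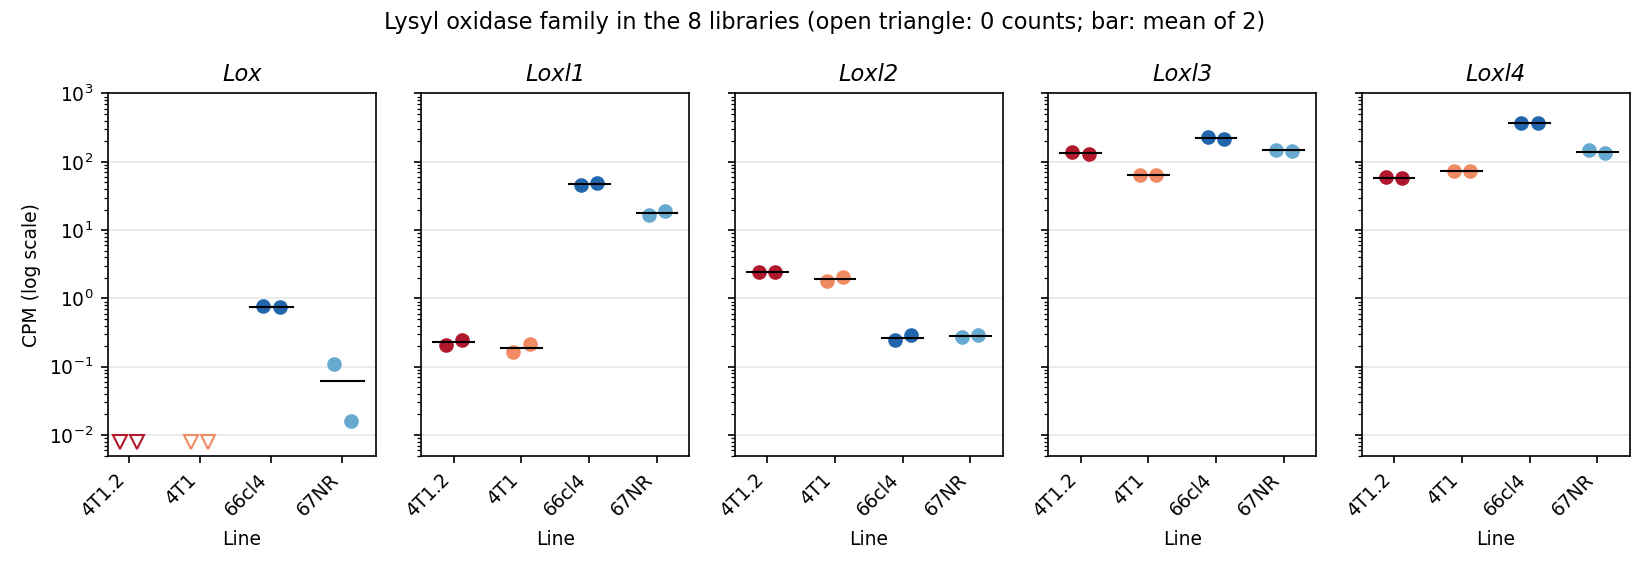
Level of each lysyl oxidase gene in CPM (log axis) in the 8 libraries, by line. Points are libraries, bars are means of 2, and open triangles mark libraries with 0 counts; *Lox* and *Loxl1* are highest in 66cl4 (0.755 and 47.4 CPM), and *Loxl2* is highest in 4T1.2 (2.44 CPM).

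*Lox* (Entrez gene 16948; chromosome 18, 52516060 to 52529867), the founding member that acts on fibrillar collagens and elastin, was barely expressed. The 66cl4 libraries held 35 and 33 reads of it and the 67NR libraries 4 and 1, against 0 in both 4T1.2 and both 4T1 libraries. The 66cl4 libraries stood above the rest without overlap, and the 67NR libraries were close to the 4T1 and 4T1.2 libraries. In 66cl4 the level was 0.755 ± 0.0261 CPM, and in 67NR it was 0.0627 ± 0.0658 CPM. A count of 0 allows up to 3 counts in a library, or 0.0529 CPM for 4T1.2 and 0.057 CPM for 4T1. On that basis *Lox* was at least 14.3-fold higher in 66cl4 than in 4T1.2 (edgeR, adjusted p = 0.000151) and at least 13.3-fold higher than in 4T1 (edgeR, adjusted p = 0.000162). Against 67NR the ratio of 66cl4 was 14.9, with an exact 95% interval of 6.06 to 47.2 on the summed counts of 68 and 5 (edgeR, adjusted p = 0.00142). Between 67NR and 4T1.2 (edgeR, adjusted p = 0.0579) or 4T1 (edgeR, adjusted p = 0.0616) a difference was not detectable at this depth. DESeq2's Wald test placed both below the threshold, with adjusted p-values of 0.0331 and 0.0374, and without replicate 2 of 67NR edgeR gave 0.0224 and 0.0233. *Lox* entered the test only through its counts in 66cl4, since the filter asked for 0.174 CPM in at least 2 libraries.

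*Loxl1*, whose enzyme is known for the maintenance of elastic fibres, showed the widest range of the 4 members read in every library. It was read 12 and 14 times in 4T1.2 and 10 times in each 4T1 library. The 66cl4 libraries gave 2100 and 2167 counts and the 67NR libraries 607 and 1174. The lines formed a low pair and a high pair that did not overlap. Levels were 0.229 ± 0.0252 CPM for 4T1.2, 0.190 ± 0.0368 for 4T1, 47.4 ± 1.39 for 66cl4 and 17.8 ± 1.74 for 67NR. Between the high lines, 66cl4 exceeded 67NR by 2.66-fold (log2 fold change 1.41, standard error 0.11, edgeR, adjusted p = 1.1e-05). Between the low lines, the difference of 0.29 on the log2 scale did not pass the test (95% interval -0.447 to 1.03, edgeR, adjusted p = 0.679). Raw counts of *Lox*, not scaled for length, were 1.59% of those of *Loxl1* in 66cl4 and 0.281% in 67NR, which is no comparison of levels. No 75-base stretch of either gene was found in another gene's transcripts.

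*Loxl2*, whose enzyme cross-links collagen IV of basement membranes among other substrates, was the single member with its highest levels in the 4T1 pair. Its counts were 137 and 140 in 4T1.2 and 110 and 96 in 4T1, while 66cl4 gave 11 and 13 and 67NR gave 10 and 18. Every 4T1.2 and 4T1 library lay above every 66cl4 and 67NR library. Levels were 2.44 ± 0.0405 CPM for 4T1.2, 1.94 ± 0.191 for 4T1, 0.267 ± 0.0333 for 66cl4 and 0.282 ± 0.0133 for 67NR. Neighbours in this order did not differ within the pairs, with log2 fold changes of 0.34 for 4T1.2 against 4T1 (95% interval -0.0674 to 0.745, edgeR, adjusted p = 0.239) and -0.09 for 66cl4 against 67NR (95% interval -0.85 to 0.666, edgeR, adjusted p = 0.87). The annotation places a near-identical copy, *Gm21451*, on the same chromosome, and 43.6% of the 75-base stretches of *Loxl2* also occur in transcripts of other genes, mostly that copy. *Gm21451* itself was read 27 to 36 times in the 4T1.2 and 4T1 libraries and 0 to 3 times in the others. How reads were divided between the copies is not stated, so the level of *Loxl2* is uncertain. With the counts of both summed, its difference between the pairs was 3.14 on the log2 scale (edgeR, adjusted p = 6.66e-08), an alternative added after the data were seen.

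*Loxl3*, which is required for normal palate and spine development in mice, was among the most highly expressed members in all lines. It had 7791 and 7365 counts in 4T1.2, 3947 and 2922 in 4T1, 10417 and 9734 for 66cl4, and 5495 and 9017 for 67NR. After scaling, levels were 134 ± 5.15 CPM for 4T1.2, 63.9 ± 1.13 for 4T1, 224 ± 9.14 for 66cl4 and 148 ± 2.70 for 67NR. No line overlapped another, and 4T1 stood lowest. *Loxl3* was 2.09-fold higher in 4T1.2 than in 4T1 (log2 fold change 1.065, standard error 0.08, edgeR, adjusted p = 3.62e-05). In the order of levels, 66cl4 exceeded 67NR by 1.51-fold (edgeR, adjusted p = 0.000272), while 67NR and 4T1.2 did not differ beyond their spread (log2 fold change of 4T1.2 over 67NR -0.15, 95% interval -0.328 to 0.0321, edgeR, adjusted p = 0.128). Exons of *Loxl3* overlap those of the protease gene *Htra2* on the opposite strand over 11.6% of their bases. Whether reads were counted by strand is not stated. *Htra2* was at 82.9 ± 1.01 CPM for 4T1.2, 65.3 ± 1.43 for 4T1, 87.8 ± 5.46 for 66cl4 and 92.3 ± 8.06 for 67NR, and its difference between 4T1.2 and 4T1 was 0.34 on the log2 scale (edgeR, adjusted p = 0.0291). Its part in the values of *Loxl3* was not tested.

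*Loxl4*, a further collagen cross-linking member, differed between all lines. Its counts were 3353 and 3316 in 4T1.2, 4527 and 3400 in 4T1, 16886 and 16712 for 66cl4, and 5452 and 8225 for 67NR. The corresponding levels were 58.8 ± 0.388, 73.8 ± 0.555, 373 ± 0.0856 and 141 ± 10.95 CPM, so that 66cl4 stood highest and 4T1.2 lowest with no overlap of libraries. The step from 67NR to 66cl4 was 2.65-fold (log2 fold change 1.40, standard error 0.08, edgeR, adjusted p = 1.97e-06). *Loxl4* was 1.91-fold lower in 4T1 than in 67NR (edgeR, adjusted p = 6.12e-06). The smallest step was between 4T1.2 and 4T1, where 4T1.2 fell short by 0.33 on the log2 scale (95% interval of the log2 fold change -0.516 to -0.138, edgeR, adjusted p = 0.0236). This call was lost when either 4T1.2 library was left out (edgeR, adjusted p = 0.117 in each case). None of the 75-base stretches of *Loxl4* occurs in another gene's transcripts.

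**Figure D2:**
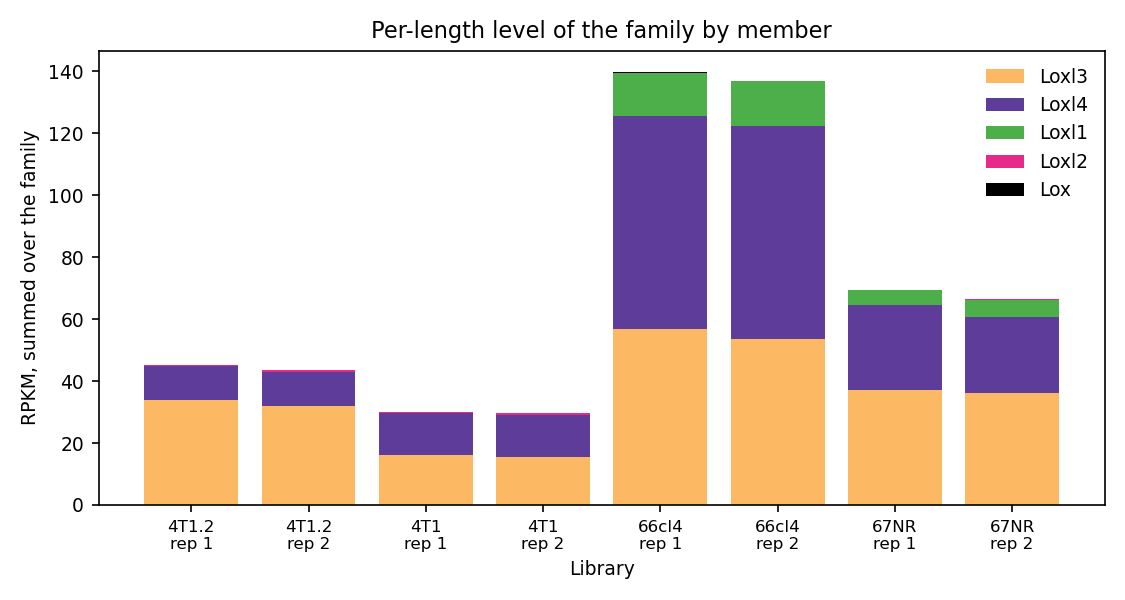
Per-length level of the family, in RPKM summed over its 5 members, for each library, coloured by member. The sums run from 29.54 in a 4T1 library to 139.7 in a 66cl4 library, and *Loxl3* and *Loxl4* fill most of every bar.

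Compared per length, *Loxl3* and *Loxl4* were the predominant members in every line. *Loxl3* was at 33.0 RPKM for 4T1.2, 15.8 for 4T1, 55.3 for 66cl4 and 36.6 for 67NR, and *Loxl4* was at 10.8, 13.6, 68.6 and 25.9 RPKM. *Loxl1* reached 14.2 RPKM in 66cl4 and 5.33 in 67NR, and was at 0.0687 and 0.0569 RPKM in 4T1.2 and 4T1. The highest line mean of *Loxl2* was 0.472 RPKM, in 4T1.2, and that of *Lox* was 0.210 RPKM, in 66cl4. *Loxl3* and *Loxl4* together made up 98.8% of the summed RPKM of the family for 4T1.2, 98.6% for 4T1, 89.5% for 66cl4 and 92.0% for 67NR. The remainder was mostly *Loxl1* in 66cl4 and 67NR, at 10.3% and 7.87%, and mostly *Loxl2* in 4T1.2 and 4T1, at 1.06% and 1.26%.

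The summed level was 44.4 ± 1.33 RPKM in 4T1.2, 29.8 ± 0.334 for 4T1, 138 ± 1.86 for 66cl4 and 67.9 ± 2.18 for 67NR, with no overlap between the libraries of different lines. The balance between the predominant members also differed by line, with a ratio of *Loxl4* to *Loxl3* of 0.328 ± 0.0105 for 4T1.2, 0.860 ± 0.00876 for 4T1, 1.24 ± 0.0505 for 66cl4 and 0.709 ± 0.0421 for 67NR. These ratios rest on the deposited length of 5437 bases for *Loxl4*, whereas the coding transcript used from GENCODE has 2274. With lengths of a single coding transcript per gene the ratios became 0.793, 2.08, 3.01 and 1.72, which puts *Loxl4* above *Loxl3* in 4T1 and 67NR. Of the 2274 bases of that *Loxl4* transcript 2271 are coding, against 2262 of 4098 for *Loxl3*. Nearly all untranslated bases are thus left out for *Loxl4* but not for *Loxl3*, while the counts of both stay the same. Which of the 2 is higher in 4T1 and 67NR is therefore not settled by these lengths. The summed levels became 59.3, 48.7, 233 and 104. The order of the lines in the summed level was the same with either length. That of the ratio could not change, since a change of lengths multiplies it by the same factor in every line.

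The main comparison contrasted the average of the 4T1 and 4T1.2 lines with that of the 66cl4 and 67NR lines. Of the 5 members, 1 was higher in 4T1/4T1.2 cells and 4 were lower, where 38.1% of all genes tested were higher and 38.6% were lower. *Loxl2* was the member that was higher, by 7.83-fold (log2 fold change 2.97, standard error 0.17, edgeR, adjusted p = 1.47e-07). *Loxl1* was 139-fold lower (log2 fold change -7.12, standard error 0.13, edgeR, adjusted p = 3.51e-11), which rests on 10 to 14 counts in each 4T1.2 and 4T1 library. *Lox* was called lower (edgeR, adjusted p = 0.00117). By mean CPM over the libraries of each pair it was at least 7.44-fold lower. That bound is carried by 66cl4 and is not one for the tested contrast, which averages the lines on the log scale. As given above, 67NR alone was not called against 4T1.2 or 4T1 for *Lox*. *Loxl4* was 3.48-fold lower (log2 fold change -1.80, standard error 0.06, edgeR, adjusted p = 2.14e-09). *Loxl3* was 1.97-fold lower (log2 fold change -0.98, standard error 0.06, edgeR, adjusted p = 1.48e-07), although its 4T1.2 and 67NR libraries lay close together. As bulk samples were read, fewer expressing cells and less RNA per cell cannot be told apart in any of these values. The 5 calls held with each library left out in turn.

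**Figure D3:**
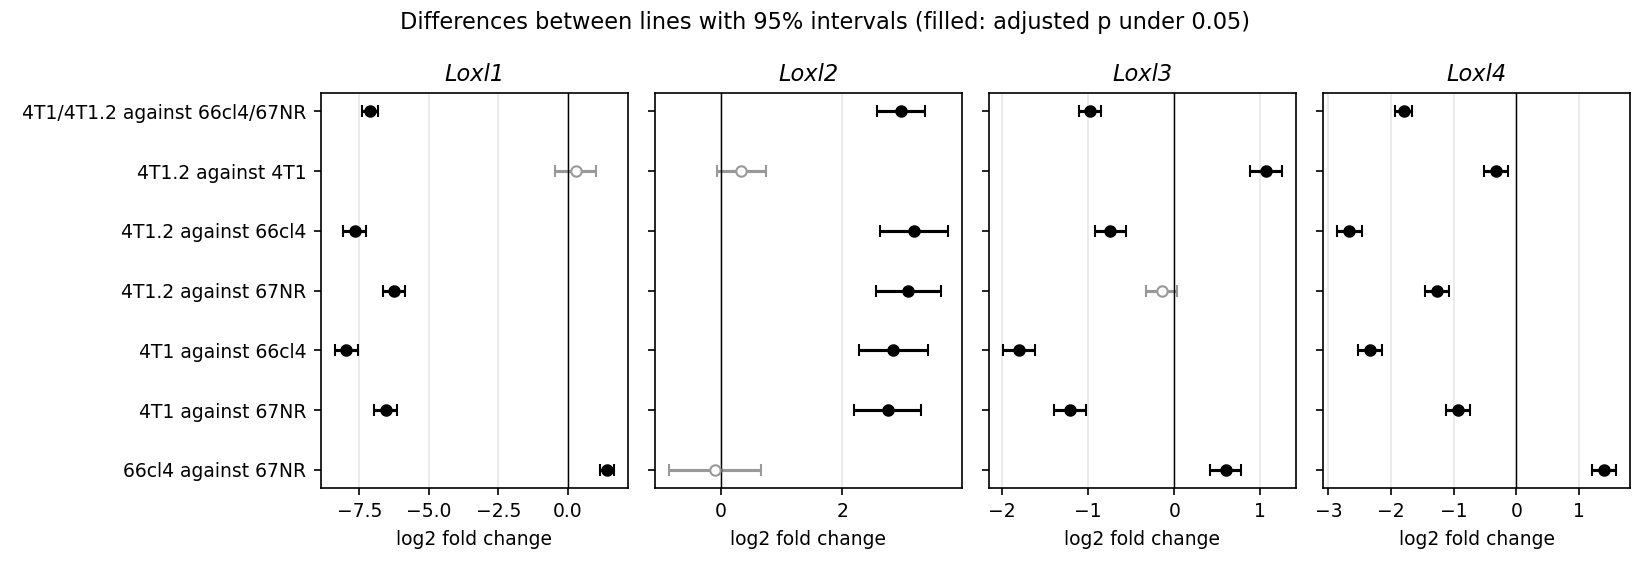
Log2 fold changes of *Loxl1*, *Loxl2*, *Loxl3* and *Loxl4* in the pooled and the 6 single-line comparisons, with 95% intervals (x axes differ between panels). Filled points passed an adjusted p of 0.05 and open points did not; *Lox* is left out because it had 0 counts in 4T1.2 and 4T1.

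The lines were then compared singly. These comparisons share libraries and are not independent of each other or of the pooled one, and no adjustment was made over comparisons. Between 4T1.2 and 4T1, where 19.3% of genes were called, *Loxl3* was higher and *Loxl4* lower in 4T1.2, and the other members were not called. Between 66cl4 and 67NR, where 44.6% were called, 4 members were higher in 66cl4 and *Loxl2* was not called.

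Across the pairs most genes differed, and so did most members. Against 66cl4, 4T1.2 differed in 68.8% of genes and 4T1 in 70.0%, and in both comparisons all 5 members were called, with *Loxl2* higher and the others lower. *Loxl4* was 6.35-fold lower in 4T1.2 and 5.06-fold lower in 4T1 than in 66cl4 (edgeR, adjusted p = 4.18e-09 and 8.72e-09). *Loxl3* was 1.67-fold and 3.50-fold lower (edgeR, adjusted p = 2.23e-05 and 3.65e-08).

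Against 67NR, 4T1.2 differed in 67.8% of genes and 4T1 in 68.2%. *Loxl1* was lower and *Loxl2* higher in both, with log2 fold changes of *Loxl1* of -6.27 and -6.56 (edgeR, adjusted p = 1.62e-09 and 1.53e-09) and of *Loxl2* of 3.09 and 2.75 (edgeR, adjusted p = 1.93e-06 and 5.59e-06). *Loxl4* was 2.40-fold lower in 4T1.2 than in 67NR (edgeR, adjusted p = 6.74e-07). *Loxl3* was 2.32-fold lower in 4T1 than in 67NR (edgeR, adjusted p = 6.8e-07) and, as given above, not called for 4T1.2.

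**Figure D4:**
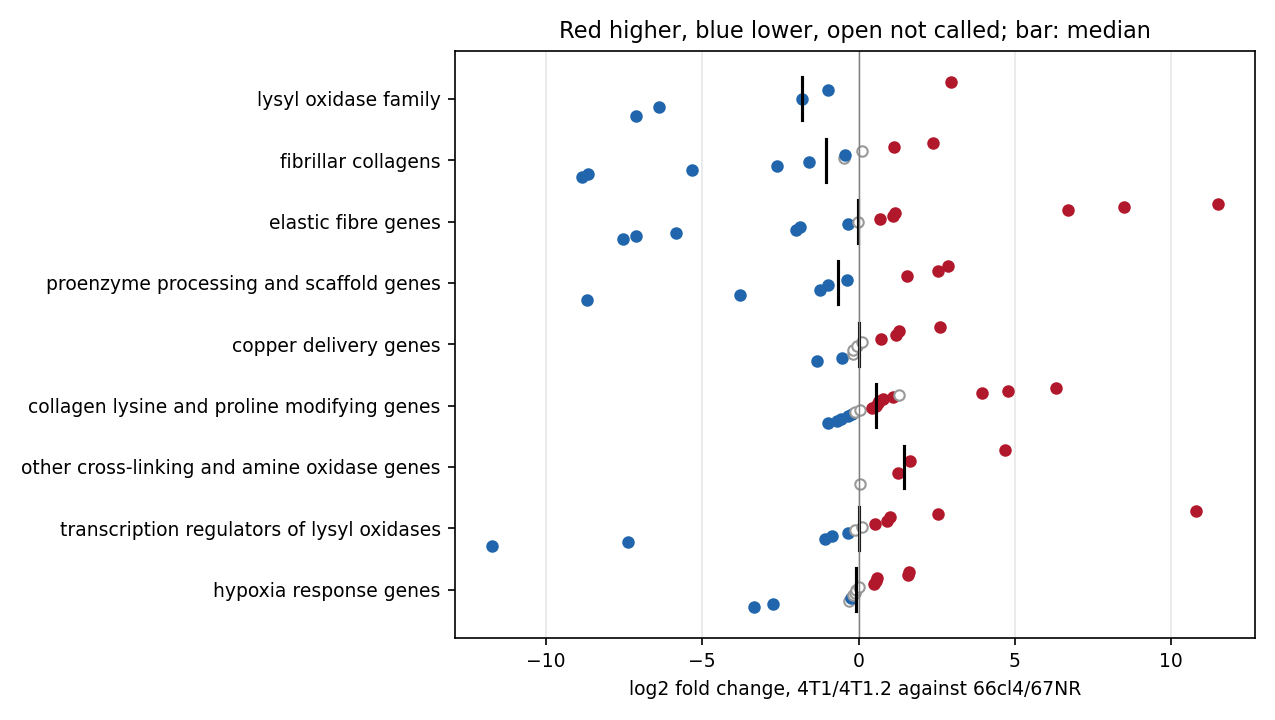
Log2 fold changes of 4T1/4T1.2 over 66cl4/67NR for the tested genes of each list (vertical offsets only separate the points). Black bars are list medians, from -1.80 for the family to 1.45 for other cross-linking and amine oxidase genes; points beyond about 5 in size belong mostly to genes with few or no counts in a pair of lines, where the fitted value is no estimate of the fold.

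Genes on which the enzymes act were listed for their role. Of 11 fibrillar collagen genes 10 were tested, and 2 rose and 6 fell in 4T1/4T1.2 against 66cl4/67NR cells, with a median log2 fold change of -1.03 against -0.01 over all genes. The counts of this list and of those that follow stand beside 38.1% higher and 38.6% lower among all genes tested. With at least 10 counts asked of every library, 3 fibrillar collagen genes were called in place of 8. *Col1a1*, a chain of type I collagen, was at 0.899 ± 0.0488 CPM for 4T1.2, 0.782 ± 0.0988 for 4T1, 5.74 ± 1.11 for 66cl4 and 4.66 ± 0.765 for 67NR, and was 6.15-fold lower in 4T1/4T1.2 cells (edgeR, adjusted p = 1.81e-07). *Col1a2*, the partner chain, had 0 to 2 counts in the 4T1.2 and 4T1 libraries against 15 to 20 in 66cl4 and 41 to 55 in 67NR. *Col3a1*, of type III collagen, had 0 counts in 4T1.2 and 4T1 against 30 to 33 in 66cl4 and 54 to 79 in 67NR. Type I and III collagen messages were thus low in all lines. *Col5a1*, of the type V collagen that initiates fibrils, was at 187 ± 28.1 CPM for 4T1.2, 130 ± 6.57 for 4T1, 152 ± 17.3 for 66cl4 and 140 ± 6.70 for 67NR and was not called (log2 fold change 0.10, 95% interval -0.0907 to 0.291, edgeR, adjusted p = 0.303).

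Of 17 elastic fibre genes 13 were tested, with 6 higher, 6 lower and a median of 0.00 on the log2 scale, where 38.1% and 38.6% of all genes were higher and lower. With at least 10 counts in every library, 6 of the list were called in place of 12. *Eln*, which encodes elastin, was read 213 to 215 times in the 4T1.2 libraries and 41 to 52 times in the 4T1 libraries, against 0 to 1 and 0 to 2 in 66cl4 and 67NR (edgeR, adjusted p = 9.44e-08). Between the pairs *Eln* thus ran opposite to *Loxl1*. Within the 4T1 pair its counts were higher in 4T1.2, where *Loxl1* was not called. *Efemp2*, which encodes the fibulin that brings lysyl oxidase to tropoelastin, was at 167 ± 5.01 CPM for 4T1.2 and 136 ± 17.6 for 4T1 and had 0 to 4 counts in the other libraries (edgeR, adjusted p = 3.3e-11). *Fbln5*, the fibulin that binds *Loxl1* protein, had 0 counts in 4T1.2 and 4T1, 2 to 6 in 66cl4 and 0 to 3 in 67NR and was not tested. *Fbn1*, the microfibril gene, was 3.64-fold lower in 4T1/4T1.2 cells (edgeR, adjusted p = 1.99e-06).

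Of 12 genes for proenzyme processing and matrix scaffolds 8 were tested, with 3 higher and 5 lower and a median of -0.66. *Bmp1*, the proteinase that removes the propeptide of *Lox* and *Loxl1* protein, was at 704 ± 61.9 CPM for 4T1.2, 564 ± 34.5 for 4T1, 80.2 ± 1.40 for 66cl4 and 91.6 ± 2.03 for 67NR. The 4T1/4T1.2 cells exceeded the others by 7.35-fold (edgeR, adjusted p = 2.22e-10), the lines in which its substrates *Lox* and *Loxl1* were lowest. *Tll1*, a related proteinase, had 0 counts in all libraries. *Pcolce*, which enhances procollagen processing, was 1.96-fold lower (edgeR, adjusted p = 3.36e-07), and *Fn1*, fibronectin, was 2.33-fold lower (edgeR, adjusted p = 6.8e-05). *Postn*, the scaffold protein periostin, was read 106 to 151 times in 66cl4 and 1 to 3 times in every other library. *Fmod*, the small proteoglycan fibromodulin that guides collagen cross-linking, had 0 counts in 4T1.2 and 4T1, 67 to 77 in 66cl4 and 28 to 32 in 67NR.

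Copper delivery genes went both ways, with 4 of 10 higher, 2 lower and 4 not called, and a median of 0.03. The called members ranged from *Atp7b*, a copper pump, at 2.62 on the log2 scale (edgeR, adjusted p = 0.00477) to *Steap3*, a metalloreductase, at -1.32 (edgeR, adjusted p = 3.78e-07). *Atp7b* had 11 to 26 counts in 4T1, 3 to 4 in 4T1.2, 0 to 1 in 66cl4 and 2 in each 67NR library. It entered the test only through 4T1, and its value is no estimate of the fold. *Steap3* was at 30.5 CPM for 67NR, while 66cl4 at 6.12 lay between 4T1.2 at 3.92 and 4T1 at 7.69. *Atp7a*, the pump that loads copper into secreted cuproenzymes, was at 23.4 to 33.1 CPM over the line means (log2 fold change -0.16, edgeR, adjusted p = 0.102). *Slc31a1*, the copper importer, was at 80.6 to 93.7 CPM (log2 fold change 0.11, edgeR, adjusted p = 0.116). *Atox1*, the copper chaperone that serves the pump, differed by 2.29-fold in favour of 4T1/4T1.2 cells, at 97.8 and 91.0 CPM for 4T1.2 and 4T1 against 44.2 and 38.5 in 66cl4 and 67NR (edgeR, adjusted p = 3.32e-06).

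Enzymes and chaperones that modify collagen before secretion included 9 of 17 tested genes that were higher and 5 that were lower, with a median of 0.55. The most distinct was *Serpinh1*, the collagen chaperone, at 855 ± 56.6 CPM for 4T1.2, 770 ± 69.7 for 4T1, 268 ± 14.1 for 67NR and 0.377 ± 0.249 for 66cl4, where it had 9 and 25 counts. Its pooled difference of 6.33 on the log2 scale (edgeR, adjusted p = 1.63e-10) is therefore an average over unlike lines, and the line in which it was lowest was the one with the highest *Loxl1*, *Loxl3* and *Loxl4*. Among the lysyl hydroxylases, which prepare the residues that lysyl oxidases act on, *Plod1* was 1.71-fold higher (edgeR, adjusted p = 4.6e-05) and *Plod3* 1.60-fold lower (edgeR, adjusted p = 4.35e-06). The rise of *Plod1* was carried by 4T1, at 192 ± 45.5 CPM. Its means were 67.4 CPM for 4T1.2, 57.3 for 66cl4 and 76.9 for 67NR, so that 4T1.2 lay below 67NR. *Plod2* was called lower by 0.20 on the log2 scale (edgeR, adjusted p = 0.0347), a call lost in 6 of the 8 fits that left out a library and without the removal of genes by annotation.

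Of the other cross-linking and amine oxidase genes 4 were tested and 3 were higher, with a median of 1.45. *Tgm2*, the transglutaminase that cross-links matrix proteins through glutamine, was at 693 ± 29.8 CPM for 4T1.2, 357 ± 35.5 for 4T1, 41.1 ± 2.94 for 66cl4 and 9.06 ± 0.261 for 67NR, and was 25.7-fold higher in 4T1/4T1.2 cells (edgeR, adjusted p = 2.92e-11). Between the pairs, the lines with the lower lysyl oxidase sum had the higher *Tgm2*. Within each pair it was the reverse, since 4T1.2 and 66cl4 had both the higher sum and the higher *Tgm2*.

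Regulators known to act on lysyl oxidase genes or proteins split evenly, with 5 of 12 higher and 5 lower and a median of 0.01. *Hif1a*, the hypoxia factor, was 1.86-fold higher in 4T1/4T1.2 cells (edgeR, adjusted p = 3.71e-07) and *Tgfb1* 2.01-fold higher (edgeR, adjusted p = 3.42e-06). *Snai1*, which is stabilised by *Loxl2* protein, was at 20.2 ± 2.53 CPM for 4T1.2 and 13.9 ± 2.51 for 4T1 and had 1 to 2 counts in 66cl4 and 0 in 67NR. *Snai2*, its relative, showed the opposite, with 0 to 3 counts in 4T1.2 and 4T1 and 100 ± 9.92 and 70.9 ± 3.57 CPM for 66cl4 and 67NR. *Loxl2* and *Snai1* were thus both higher in 4T1.2 and 4T1, as were 38.1% of all genes tested. *Loxl2* stayed low there, at 2.44 and 1.94 CPM, and a link between the genes was not tested.

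Hypoxia response genes, a group that shares an inducer with some members of the family, were 5 higher, 3 lower and 5 not called of 13, with a median of -0.09. The number called moved when replicate 2 of 4T1 was left out. In 4T1.2 against 4T1, 10 of the 13 were lower and none higher, with a median of -0.91, where 9.90% of all genes were lower and 9.37% higher. In 66cl4 against 67NR 11 were lower and 1 higher, with a median of -0.70, where 22.4% of all genes were lower and 22.3% higher. *Car9*, a standard marker of hypoxia, was at 2.78 ± 0.134 CPM for 4T1.2, 70.0 ± 21.9 for 4T1, 49.0 ± 1.87 for 66cl4 and 175 ± 15.9 for 67NR. *Vegfa* was called lower in 4T1/4T1.2 cells by 0.23 on the log2 scale (edgeR, adjusted p = 0.011), a call lost without replicate 2 of 4T1.2 (0.052) or of 67NR (0.0553). The line means of *Vegfa* were 67.16 CPM for 4T1.2, 67.25 for 4T1, 69.13 for 66cl4 and 89.85 for 67NR, so that 67NR alone stood apart. *Loxl3* was higher in 4T1.2 than in 4T1 and in 66cl4 than in 67NR, which are the lines where the list was lower. *Loxl4* did the reverse between 4T1.2 and 4T1 but was also higher in 66cl4 than in 67NR, as were *Lox* and *Loxl1*. The part of this list in the values of the family was not tested.

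Markers of cell type were set beside these results. Summed epithelial markers ran from 1880 to 2190 CPM for 4T1.2, 2710 to 3550 in 4T1, 721 to 723 in 66cl4 and 466 to 531 in 67NR, and all 10 that were tested of 12 were higher in 4T1/4T1.2 cells. Only *Krt7*, *Krt8* and *Krt18* reached the filter level in every line. The rest of the 10 passed only through 4T1.2 and 4T1 libraries, so their direction was largely set by the filter. *Krt5*, not tested, had 0 to 3 counts in 4T1.2 and 4T1 and 2 to 9 in 66cl4 and 67NR. *Epcam* was at 13.99 and 42.8 CPM for 4T1.2 and 4T1 and had 0 counts in 66cl4 and 0 to 1 in 67NR, so that this defining epithelial marker was at or next to 0 there, while *Krt8* was read at 496 to 1433 CPM in all lines. Of 8 fibroblast markers 6 were tested, with 1 higher and 4 lower, and their sums ran from 1380 to 1950 CPM for 4T1 and 4T1.2 and from 2380 to 3450 in 66cl4 and 67NR. *S100a4* made up most of these sums, at 1268 to 3070 CPM, and without it they ran from 115 to 171 and from 346 to 672 CPM. That remaining gap came from *Pdgfrb* and *Pdpn*. *Pdgfrb* had line means of 346.5 (66cl4), 175.8 (67NR), 3.075 (4T1) and 1.437 CPM (4T1.2). For *Pdpn* they were 166, 100.2, 0.0216 and 0.0529 CPM. *Pdgfra* did not separate the pairs, at 132.9, 86.49, 113.5 and 162.1 CPM in the same order. The line means of *Dcn*, *Lum*, *Thy1* and *Fap* were at most 0.530 CPM, so the fibroblast sums show no shift across the list. Leucocyte markers summed to 4.18 to 6.76 CPM, with 4 of 10 at 0 in each line and *Ptprc* at 0 to 2 counts. Endothelial markers summed to 1.67 to 1.78 CPM for 4T1.2, 9.52 to 9.86 for 4T1 and 0.41 to 0.641 for 66cl4 and 67NR, and all 3 that were tested of 8 were higher in 4T1/4T1.2 cells. These 3, *Pecam1*, *Cdh5* and *Tie1*, passed the filter only through 4T1.2 and 4T1 libraries, so their shared direction was largely set by it. *Tie1* had 31 to 50 counts in 4T1.2, 336 to 370 in 4T1 and 0 to 1 elsewhere, and *Cdh5* had 33 to 204 in 4T1.2 and 4T1 against 2 to 10. Of those not tested, *Kdr* was at 0 to 1 counts in all, and *Emcn* had 5 to 8 counts in 66cl4 and 0 in the other lines. The sums of epithelial, fibroblast and endothelial markers thus did not overlap between the pairs of lines, and their part in the differences of the family was not tested.

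**Figure D5:**
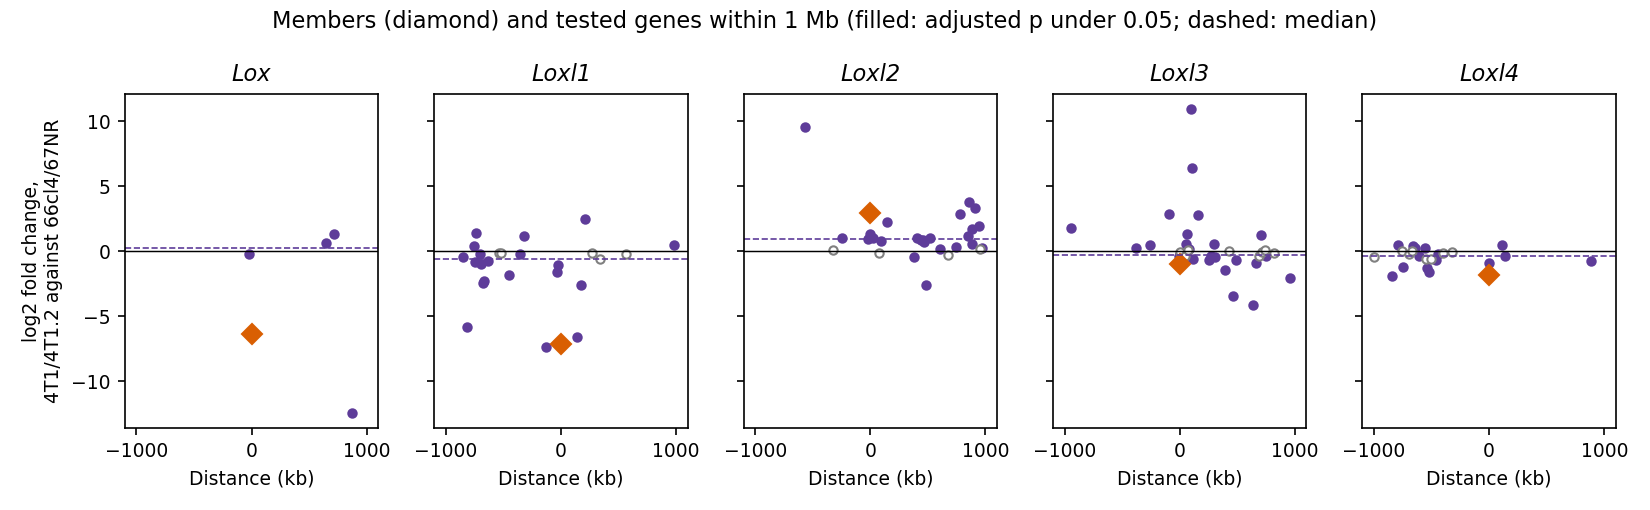
Log2 fold changes of 4T1/4T1.2 over 66cl4/67NR for tested genes within 1 Mb of each member, against distance in kb. Diamonds are the members, dashed lines are the medians of the neighbours, and filled points passed an adjusted p of 0.05; around *Loxl2* the median is 0.92 and 22 of 28 neighbours were higher.

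Position on the chromosome was also examined, with the window chosen after the values were seen. Of 28 tested genes within 1 Mb of *Loxl2*, 22 rose and 2 fell in 4T1/4T1.2 against 66cl4/67NR cells, where 38.1% of all genes rose and 38.6% fell, with a median log2 fold change of 0.92. The 480 tested genes of chromosome 14 had a median of 0.51. *Loxl2* at 2.97 lay above both values, and their part in its difference was not tested. *Bmp1* lies 779 kb from *Loxl2* in this window. Around *Loxl1* 15 of 25 neighbours were lower and 5 higher, with a median of -0.61, while its chromosome had a median of 0.06. Near *Loxl4* 11 of 24 were lower and 5 higher (median -0.34), near *Loxl3* 17 of 37 were lower and 12 higher (median -0.29), and the 4 tested neighbours of *Lox* were divided evenly. The shares near *Loxl3* and of lower genes near *Loxl4* were not far from those over all genes, and no test of position was made.

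Genes with the most similar pattern were sought for each member by the root mean square difference of log2 CPM over the 8 libraries, after centring each gene. As a description, the closest to *Loxl4* were *Ccnd2* at 0.0902, *Il1rap* at 0.141 and *Apol10b* at 0.144, where the median over all genes was 1.11. *Ccnd2*, a cyclin of the G1 phase, was at 58.4, 63.1, 349 and 140 CPM for 4T1.2, 4T1, 66cl4 and 67NR. For *Loxl2* they were *Etv4* at 0.102, *Cth* at 0.115 and *Bmp1* at 0.118, against a median of 1.48.

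For *Loxl3* the closest genes were *Vax2* at 0.137, *Vdr* at 0.150 and *Mpp1* at 0.177 (median 0.777). *Vax2* is itself a neighbour, at 659 kb. *Loxl1* was closest to *Rab36* at 0.158, *Tent5a* at 0.326 and *Runx1t1* at 0.341 (median 3.48), of which *Rab36* and *Runx1t1* had 0 counts in 4T1.2 and 4T1. For *Lox* they were *Gcnt4* at 0.307, *Adamts1* at 0.399 and *Igf2os* at 0.412 (median 1.86), which rests on few counts. *Adamts1*, a secreted matrix protease, was at 620 ± 19.2 CPM for 66cl4 and 109 ± 12.5 for 67NR against 39.5 ± 3.13 and 30.9 ± 3.01 for 4T1.2 and 4T1.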

How the data were processed

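The authors counted reads on Entrez genes with featureCounts (mm10, per the labels), and they deposited raw counts for 27179 genes in 8 libraries. For the study's endothelial libraries the methods state paired reads of 75 bases, Rsubread alignment and the built-in annotation, and for these similar sequencing and handling. Strand settings were not given in the sources used here. Of the identifiers, 25275 (93.0%) had an entry in the RefSeq gene table (GRCm38).

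Genes passing filterByExpr (15269) were kept, apart from ribosomal genes, predicted genes and identifiers with no entry, which left 13913 and removed 5.39% to 8% of a library's counts. A mean per line was fitted with edgeR 4.0.16 (quasi-likelihood F-test, legacy fit, TMM, limma 3.58.1, R 4.3.3) on 4 residual degrees of freedom, and biological variation (BCV) came to 9.74%. Standard errors were derived from the F statistic. Totals per library were 37159840 to 66269681 counts.

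Alternatives were DESeq2 size factors, no low-count filter, a minimum of 10 counts per library, keeping genes of all annotations, the newer quasi-likelihood fit, robust estimation, DESeq2 1.42.0, limma-voom, a prior count of 2, a replicate block and leaving out each library. Summing *Loxl2* with *Gm21451*, and transcript lengths, were added later. The test was run first on simulated data.

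The members and lists were chosen with earlier results of these data known. Named genes were the members, genes of the lists picked for their role and, for each member, the 3 genes of most similar pattern (prior count 2). Shared stretches of 75 bases and coding windows were found in GENCODE M21 transcripts. Promoter and protein sequences were not used here.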

Additional observations from a re-analysis of the deposited data

How the results depend on the processing

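All 5 members kept their direction and call in the pooled comparison under every alternative that could be run, with a highest adjusted p of 0.0148, for *Lox*, which could not be tested when at least 10 counts were asked of every library. Log2 fold changes with a library left out were -6.85 to -5.66 for *Lox*, -7.21 to -7.01 for *Loxl1*, 2.91 to 3.03 for *Loxl2*, -1 to -0.96 for *Loxl3* and -1.84 to -1.76 for *Loxl4*. The fitted value of *Lox* lay between -6.4 and -2.78 over the other settings and is no estimate of its fold.

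Genes called between 4T1.2 and 4T1 numbered 2681, and 1372 to 3104 with a library left out (1372 without replicate 1 and 1424 without replicate 2 of 4T1.2). The value of *Loxl2* in 66cl4 against 67NR, -0.09, was -0.22 to 0.03 with a library left out, 0.03 coming without replicate 1 of 66cl4 (edgeR, adjusted p 0.981), and was 0.03 with *Gm21451* summed (0.969). *Lox* in 4T1.2 against 67NR passed it under limma-voom (0.0227) and without replicate 1 (0.0466) or 2 (0.0482) of 4T1, and in 4T1 against 67NR under limma-voom (0.0266). With at least 10 counts in every library, 3 fibrillar collagen and 6 elastic fibre genes were called. *Atp7a* was called without replicate 2 of 66cl4 (0.0147). The causes were not tested.

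Deviations of same-numbered libraries correlated at -0.123 to 0.269, so the numbers were not taken to pair the libraries. The replicate block gave 10788 genes in the pooled comparison against 10676 and 2879 between 4T1.2 and 4T1, and changed no call of a member.

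With 2 libraries a line, depth limits *Lox* in 67NR and all values resting on a few counts.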

Other observations

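Some matrix genes of the lists that the report does not name also differed widely between the lines, and those given here were chosen after their values were seen. *Col5a2*, which pairs with *Col5a1* in type V collagen, was at 34.1 ± 4.11 CPM for 66cl4 and 1.44 ± 0.343 for 67NR (SD, n = 2) and had 0 to 2 counts in each 4T1.2 and 4T1 library. Its partner *Col5a1* was at 130 to 187 CPM in all lines. *Emilin1*, an elastic fibre glycoprotein, was at 52.5 ± 6.05 CPM for 66cl4 and 33.8 ± 0.612 for 67NR against 0.361 ± 0.162 for 4T1.2 and 0.258 ± 0.0631 for 4T1. *Fbln1*, a fibulin of elastic fibres, had the opposite order, at 35.1 ± 1.84 and 29.1 ± 0.939 CPM for 4T1.2 and 4T1 and 2 to 7 counts in the other libraries.

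*Zeb1*, a repressor of epithelial genes, was at 62.6 ± 3.61 CPM for 66cl4 and 64.2 ± 1.54 for 67NR and at 0.318 ± 0.0752 and 0.456 ± 0.00388 for 4T1.2 and 4T1. *P3h4*, which assists lysine hydroxylation of collagen, had 0 counts in 66cl4, 6 in each 67NR library, 6 to 9 in 4T1.2 and 28 to 31 in 4T1. It was thus near the floor in every line but 4T1, and low there as well.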
